A study of Mus musculus with 64 samples.

Results

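The genes described here are the 3 CIDE genes (Cidea, Cideb and Cidec) and the 5 perilipin genes (Plin1 to Plin5) of the mouse, 8 of the 36332 gene IDs in the deposited table. They were chosen by name, through their NCBI gene IDs, after Cidea had been seen to be higher in the liver of old mice. The liver comparison of 20 with 5 months is therefore given for these genes as a description, with no test. The series holds 64 bulk RNA-seq libraries of omental adipose tissue, liver and skeletal muscle in 12 groups. KO mice carry a tamoxifen-activated Cre recombinase (cre/ERT2) at the ubiquitously expressed Gt(ROSA)26Sor locus together with a floxed Myc gene, in a cross of B6.129 lines, and are labelled MycKO. WT mice are labelled C57/B6, so that the Myc genotype, the Cre allele and the strain background differ together between KO and WT and cannot be told apart. Mice of both genotypes and both ages received tamoxifen once a day, 5 times, from weaning on and once they weighed at least 15 g (75 mg/kg, injected with corn oil as the vehicle), and were analysed at 5 or 20 months. There are 6 young KO and 6 young WT libraries of adipose tissue, as many of liver, and 4 young KO with 6 young WT libraries of muscle. Every group of 20 months has 5 libraries. The labels do not say that libraries are separate animals, so p-values measure only the spread between these libraries.

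Lipid droplets store triglyceride and sterol esters under a phospholipid monolayer that carries coat proteins. Perilipins sit on that surface and control the access of lipases: perilipin 1 is the adipocyte form that responds to protein kinase A, perilipin 2 coats droplets in most tissues and is abundant in liver, perilipin 3 is widely expressed and moves between cytosol and droplet, perilipin 4 coats nascent droplets in adipocytes and muscle, and perilipin 5 belongs to oxidative tissues, where it tethers droplets to mitochondria. CIDE proteins gather where droplets touch and pass lipid from the smaller to the larger droplet. CIDEA is typical of brown adipocytes, CIDEB of hepatocytes, where it also takes part in the lipidation of very low density lipoprotein, and CIDEC (FSP27 in the mouse) of white adipocytes with a single large droplet. Cidea and Cidec transcripts are known to appear in fatty liver.

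Each library had 15.4 to 28.5 M (1e6) reads on genes, with a median of 19.6 M. Values are the deposited values called CPM, which sum to 0.529 to 1.64 M per library and are lower in sum in adipose tissue than in the other tissues. Myc transcripts, which check the genotype labels, did not overlap between KO and WT in liver at either age (at most 4.04 CPM in KO and at least 5.36 in WT) or in adipose tissue at 5 months (at most 10.5 and at least 11.2), and overlapped elsewhere. The closest groups were those of old muscle, with 5.98 ± 3.83 CPM (SD, n = 5) for KO and 7.91 ± 3.21 (n = 5) for WT. Of the 64 libraries, 12 had high Xist, a transcript of female cells. They are 2 in each group of 5 months, so that no old library has it. Ageing of the CIDE and perilipin genes was also compared without them, while that of the marker and pathway genes was not. Library names are those of the deposited columns, where 18 stands in the names of mice labelled 20 months. Hepatocyte markers summed to 122500 to 252000 CPM in liver, and white adipocyte markers to 9686 to 35720 CPM in adipose tissue. In adipose tissue 3 KO libraries and 1 WT library of 5 months (K5F4284, K5F5218, K5F5248 and W5F5299) held epididymal transcripts above 100 CPM in sum, the WT muscle library W5S5299 of 5 months held 127 CPM of them, and the WT muscle library W18S42 of 20 months held hepatocyte transcripts of 3136 CPM in sum.

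The 8 genes lie on 6 chromosomes (GRCm38.p6). Cideb (gene ID 12684) is at chr14:55754052-55758424, Cidec (14311) at chr6:113424634-113435760, Plin1 (103968) at chr7:79721164-79732904 and Plin2 (11520) at chr4:86626910-86670217. Plin4 (57435, chr17:56100587-56109948), Plin5 (66968, chr17:56111597-56117606) and Plin3 (66905, chr17:56278962-56290511) lie on the minus strand of chromosome 17, with 1.65 kb between Plin4 and Plin5 and 161.35 kb, with other annotated genes, between Plin5 and Plin3. The stretches upstream of their annotated starts are shown because Plin3 and Plin4 both fell in ageing WT muscle while Plin5, of the same stretch of the chromosome, did not pass the test. They are RefSeq sequences of GRCm38.p6, written along the minus strand, with capitals for the motifs searched on both strands.
Plin3, chr17:56290512-56290761: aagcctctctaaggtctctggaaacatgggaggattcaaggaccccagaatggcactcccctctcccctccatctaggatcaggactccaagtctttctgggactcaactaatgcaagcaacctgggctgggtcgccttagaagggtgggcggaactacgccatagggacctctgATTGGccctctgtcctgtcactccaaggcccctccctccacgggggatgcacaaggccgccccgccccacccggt
Plin4, chr17:56109949-56110032: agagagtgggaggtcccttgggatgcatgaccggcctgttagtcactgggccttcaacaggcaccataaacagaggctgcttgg
Plin5, chr17:56117607-56117798: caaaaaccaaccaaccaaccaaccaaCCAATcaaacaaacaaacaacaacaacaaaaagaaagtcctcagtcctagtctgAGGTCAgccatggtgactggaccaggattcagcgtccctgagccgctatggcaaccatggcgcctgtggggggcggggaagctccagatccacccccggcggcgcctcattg
The motifs were CACGTG (the E-box that Myc and its partners bind), AGGTCA (the element of many nuclear receptors) and CCAAT. In windows of 250 bases upstream of the start, CACGTG stood in none of the 7 genes that have a window, against 6.02% of 32851 windows. AGGTCA stood in Plin2 and Plin5, against 14.0% of windows, and CCAAT in Plin2, Plin3, Plin4 and Plin5, against 33.8%. The Plin4 and Plin5 stretches are shorter than their windows because only the bases outside the annotated gene are printed, and the Plin4 stretch holds no match.

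The order of the 8 genes differed between tissues, with many of them shared. In WT libraries of 5 months, on the scale of mean CPM per kb of exon, adipose tissue was led by Cidec (2165), followed by Plin4 (367), Plin2 (134) and Plin1 (127). Liver was led by Plin2 (602), followed by Cideb (239), Plin5 (211) and Cidec (83.8), and its lowest were Cidea (0.09) and Plin1 (0.01). Muscle was led by Plin4 (194), with Plin5 (34.7), Plin3 (18.2), Cidec (14.8) and Plin2 (12) behind it and Cideb at 0. A low-value filter, above 1 CPM in as many libraries as the smallest group of the fit holds, came before every test. Compared with limma, most of the 8 genes passed (adjusted p under 0.05), as did most genes: 7 of 8 between adipose tissue and liver, where 69.7% of all genes tested passed, 6 of 8 between adipose tissue and muscle (68.9%) and 7 of 8 between liver and muscle (73.1%). These shares are near the background, so that the counts are not a result about these genes.

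**Figure D1:**
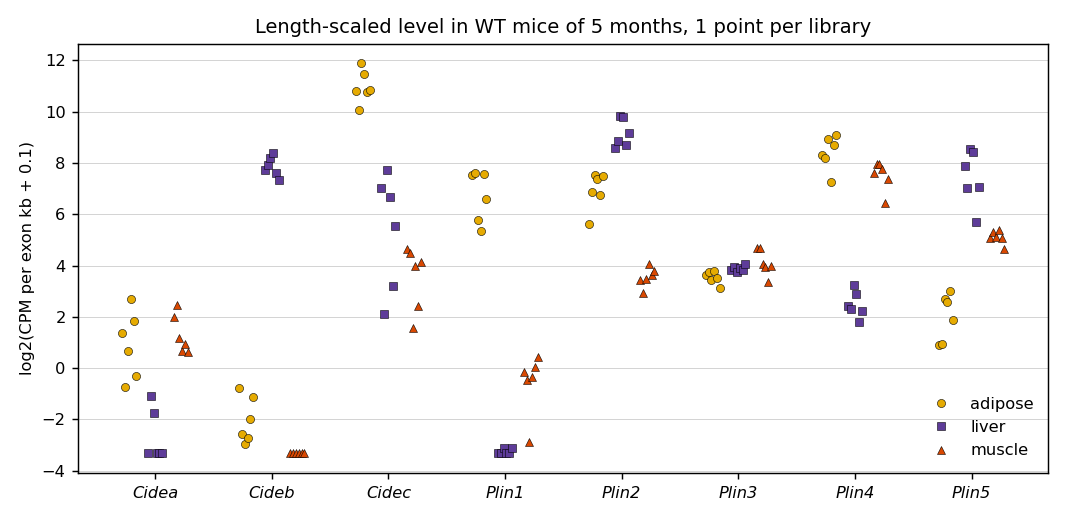
Levels of the 8 genes in WT libraries of 5 months, as log2(CPM per exon kb + 0.1), with 1 point per library, circles for adipose tissue, squares for liver and triangles for muscle. Plin1 and Cidec are highest in adipose tissue, Cideb, Plin2 and Plin5 in liver, and Plin3 has means from 11.7 to 18.2 CPM per kb in the 3 tissues.

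Plin1 and Cideb had the largest tissue differences of the set. Plin1 was higher in adipose tissue than in liver by 8.92 on the log2(CPM + 1) scale (adjusted p = 1.43e-13, limma) and than in muscle by 7.01 (9.42e-12). Cideb was higher in liver than in adipose tissue by 8.10 and than in muscle by 8.43. Cidec was higher in adipose tissue than in liver by 5.55 (adjusted p = 2.42e-06) and than in muscle by 7.35. Its smaller difference between liver and muscle, 1.80 (adjusted p = 0.0408, limma), was lost in 6 of 18 fits that left out a library (W5L5004, W5L5041, W5L5042, W5L5299, W5S5041 or W5S5277, adjusted p from 0.0616 to 0.114) and with recovered reads divided by the library total (1.53, adjusted p = 0.073). Plin2 was higher in liver than in muscle by 5.57 and in adipose tissue than in muscle by 3.37, and lower in adipose tissue than in liver by 2.20. Plin4 was lowest in liver, by 5.92 against adipose tissue and 5.02 against muscle, and differed between adipose tissue and muscle by 0.89 (adjusted p = 0.0159, limma). Plin5 was highest in liver, by 5.29 against adipose tissue and 2.32 against muscle. Cidea, low everywhere at this age, was lower in liver than in adipose tissue by 1.55 and than in muscle by 1.76, and adipose tissue minus muscle was -0.22, which did not pass.

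Plin3 was the exception, and its tissue order depended on the scale. On the deposited scale it was lower in adipose tissue than in muscle by 0.57 (adjusted p = 0.0096, limma), with differences of -0.33 for adipose tissue minus liver and -0.24 for liver minus muscle that did not pass. With recovered reads divided by the library total, which moved the median of all genes by 0.97 between adipose tissue and liver and by 0.73 between adipose tissue and muscle, Plin3 was higher in adipose tissue than in liver by 0.79 (adjusted p = 0.000415, limma) and adipose tissue minus muscle was 0.29. No tissue order is given for Plin3 for that reason. Ordered by mean over all 12 groups, the neighbouring groups of a gene mostly overlapped: 11 of 11 neighbouring pairs for Plin3, 10 of 11 for Cidea, Cideb, Cidec, Plin4 and Plin5, and 9 of 11 for Plin1 and Plin2. The pairs that did not overlap were the steps from one tissue to another.

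Cidea (gene ID 12683, chromosome 18), whose protein promotes droplet fusion, was near 0 in young liver and well above it in old liver. At 5 months the 6 KO livers had 0 to 0.144 CPM and the 6 WT livers 0 to 0.416 CPM, which is 6 reads and 8 reads in all. At 20 months the 5 WT livers had 123, 47.9, 77.0, 40.1 and 59.4 CPM (mean 69.5 ± 33.0, SD, n = 5), from 5662 reads. The 5 KO livers of 20 months had 161, 7.41, 9.16, 5.01 and 74.1 CPM (mean 51.2 ± 67.7, n = 5), from 4567 reads. In each tissue 7 of the 8 genes passed the low-value filter, Cidea in liver only through its old groups. Every old liver was above every young one in both genotypes, and the old KO livers were split between 2 libraries in or above the WT range and 3 libraries below 10 CPM. The log2 difference between ages was 5.89 in WT and 4.42 in KO, with no test since this contrast chose the genes. On that scale the added 1 CPM understates the difference: with edgeR on recovered reads it was 9.31 in WT and 9.45 in KO.

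In bulk tissue, fewer cells of a type and less RNA per cell (or more of either) cannot be told apart. Among the white adipocyte markers, Adipoq was at most 0.205 CPM and Lep at most 0.056 in any liver library, at both ages. Plin1, which is not of that list, was at most 0.217 CPM. Cfd, an adipocyte protease, was higher in old livers, at 0.976 CPM against 0.014 CPM on average in WT and 1.33 against 0.023 CPM in KO. The sum of the 11 markers ran from 2024 to 9654 CPM in liver and was mostly Pck1, a gene of gluconeogenesis that hepatocytes also express. Of those markers, 6 to 7 stayed under 1 CPM in every library of a liver group. Of the 4 tested in liver, Fabp4 fell in WT, from a mean of 13.8 to 7.05 CPM, and none passed in KO. Ucp1, which defines brown adipocytes, was at 0 in all 10 livers of 20 months and at most 0.072 CPM at 5 months. The sum of the 10 brown adipocyte markers was 44.4 to 862 CPM in young and 151 to 509 CPM in old livers. Among the young livers it was 44.4 to 95.9 CPM in the 4 with Xist and 257 to 862 CPM in the others, and no old liver has Xist. Of the 5 of them tested in liver none passed with age, and 2 were positive in WT and 1 in KO. The part of either cell type in the Cidea values was not tested.

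**Figure D2:**
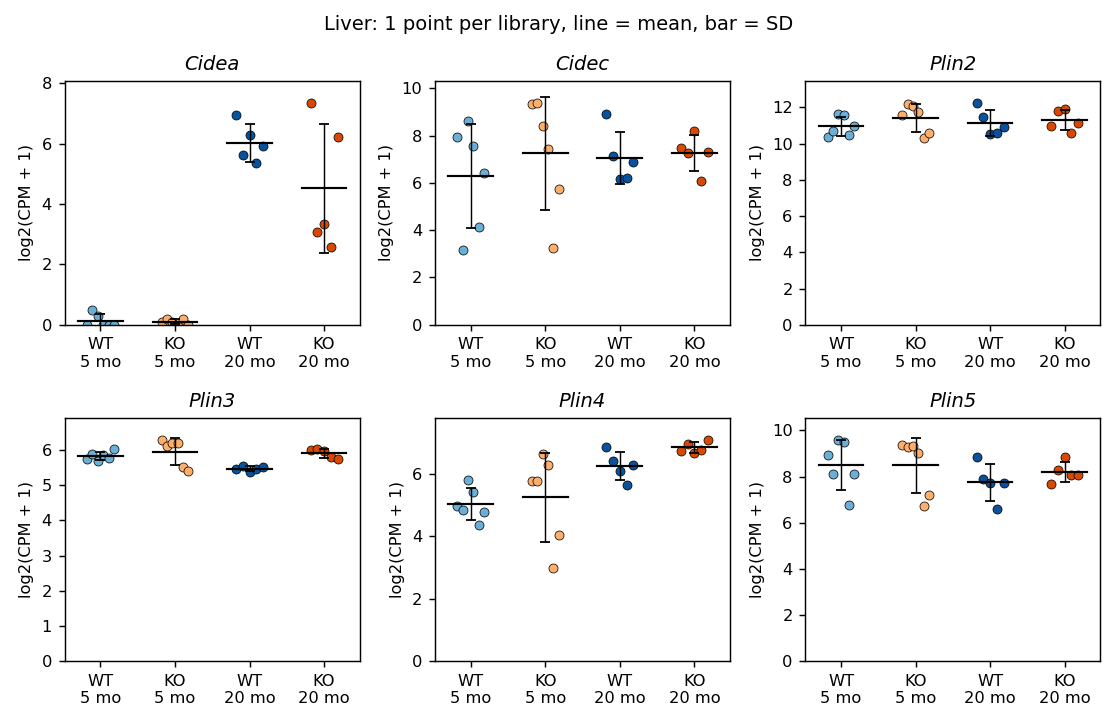
Log2(CPM + 1) of 6 genes in liver, with 1 point per library, a line for the group mean and a bar for the SD, for WT and KO at 5 and 20 months. Cidea is near 0 in the 12 young livers and from 5.01 to 161 CPM in the 10 old ones, while Cidec, Plin2 and Plin5 spread widely within the young groups.

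Cell type markers also moved in ageing liver (limma). Of 10 hepatocyte markers 4 fell in WT, Cps1 (-1.61), Tat (-1.61) and Ahsg (-0.88) among them, with a median of -0.65 over the list beside -0.01 over all genes, and Cps1 fell in KO (-1.45). The hepatocyte sum was 134400 to 252000 CPM in young and 122500 to 147100 CPM in old WT livers, and 124500 to 204300 CPM in young and 130700 to 154300 CPM in old KO livers. Of 8 macrophage markers Clec4f and Csf1r fell in WT, and in KO Csf1r and Mrc1 fell and Gpnmb rose. Their part in the droplet gene values was not tested.

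The other droplet genes in ageing liver differed less between ages than Cidea, again as a description. Plin4 was higher at 20 months in both genotypes. In WT it had 30.2, 27.7, 54.4, 41.8, 19.4 and 26.4 CPM at 5 months and 115, 83.5, 66.6, 48.6 and 76.2 CPM at 20 months, a log2 difference of 1.23 with 1 old library inside the young range. In KO it had 53.2, 53.3, 97.2, 77.3, 6.84 and 15.3 CPM at 5 months and 105, 122, 101, 107 and 134 CPM at 20 months, a difference of 1.60 with no overlap. The highest young Plin4 values, 54.4 and 41.8 CPM in WT and 97.2 and 77.3 CPM in KO, were those of the libraries with Xist. The young WT livers without Xist had at most 30.2 CPM, below every old WT liver. Plin3 in WT had 50.3 to 63.3 CPM at 5 months and 40.3 to 45.5 CPM at 20 months, a difference of -0.35 without overlap, which shrank to -0.14 with reads divided by the library total, a scale on which the median of all genes moved by 0.18. In KO the Plin3 difference was -0.04. Plin5 differed by -0.75 in WT and -0.31 in KO, Cidec by 0.75 and 0.00, Plin2 by 0.19 and -0.12, and Cideb by 0.22 and 0.08, each with overlapping groups. Leaving out 1 library moved Cidec from 0.12 to 1.22 in WT and from -0.80 to 0.43 in KO, Plin5 from -1.10 to -0.46 in WT and from -0.66 to -0.13 in KO, and Plin2 from -0.08 to 0.35 in WT and from -0.35 to 0.05 in KO. W5L5041 and W5L5042, the young WT livers with Xist, were the highest of their group for Plin5 (768 and 721 CPM). They were also the highest for Plin2 (3167 and 3078 CPM) and Cideb (435 and 493 CPM). Each fit without 1 library kept at least 1 of them, so these ranges do not show the differences without both. Plin1 had 0 to 3 reads per liver library, at most 0.217 CPM, and did not pass the low-value filter. In this contrast 7.19% of all genes passed the test in WT and 2.99% in KO, and groups did not overlap for 4.95% and 3.84% of genes; since the contrast chose the genes, nothing is read from the 2 genes without overlap in WT (Cidea and Plin3) and the 2 in KO (Cidea and Plin4).

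Cideb, the hepatocyte form, varied little. Its group means in liver lay between 339.6 ± 58.8 CPM (n = 6) in KO at 5 months and 404.5 ± 52.2 CPM (n = 5) in WT at 20 months. In adipose tissue it was at most 6.05 CPM, and in muscle it was 0 in 18 of 20 libraries. The muscle library with 4.91 CPM was W18S42, the one that held hepatocyte transcripts, and the remaining one had 0.239 CPM.

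The liver knockout comparisons, which did not choose the genes, gave no call. At 5 months 0 of 7 genes tested passed in limma, where 0.0696% of all genes did, with 0 at an unadjusted p under 0.05 and 0 in edgeR and DESeq2. Cidea, with 6 and 8 reads in these groups, is among the 7 although it could not be assessed there. At 20 months 0 of 7 passed, where 0.0232% of genes did, with 2 at an unadjusted p under 0.05 and again 0 in edgeR and DESeq2. Those 2 were Plin3 and Cidea. Plin3 had 62.1, 64.2, 61.3, 54.5 and 52.1 CPM in old KO livers and 42.7, 45.5, 40.3, 42.9 and 44.5 CPM in old WT livers. All 5 KO values were above all 5 WT values, as was the case, in either direction, for 2.46% of genes, and the difference was 0.43 (SE 0.14, adjusted p = 0.745, limma). Cidea differed by -1.51 (SE 0.61, adjusted p = 0.806), and by -2.22 to -1.03 when a library was left out. With edgeR on recovered reads the Cidea difference was -0.45. The change of the KO effect from 5 to 20 months passed for 0 of 7 genes (Cidea included, with the same limit at 5 months), where 0% of genes did, with 0 at an unadjusted p under 0.05 and 0 in edgeR and DESeq2.

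Several genes with wide spread in young liver were high and low in the same libraries. Cidec, the white adipocyte CIDE, had 645, 661, 341, 170, 8.41 and 51.7 CPM in the 6 young KO livers and 242, 7.83, 391, 190, 16.8 and 85.1 CPM in the 6 young WT livers. Plin5 had 665, 628, 639, 514, 105 and 148 CPM in the same KO livers in the same order, and 494, 274, 768, 721, 108 and 275 CPM in the WT livers. The KO libraries K5L5218 and K5L5248 were the lowest pair of their group for Cidec, Plin2, Plin3, Plin4 and Plin5, and Cideb was highest of that group in K5L5218. Over the 12 young livers the 6 pairs among Cidec, Plin2, Plin4 and Plin5, which were picked after their values were seen, had Pearson r from 0.775 to 0.873 and Spearman rank correlation from 0.706 to 0.874. Since the genes were chosen for this pattern, the values are a description with no test. Within the 8 young livers without Xist, r was 0.72 to 0.901. Without the 2 libraries farthest from the median of the first gene, r was 0.726 to 0.923.

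In the 10 old livers the same pairs had r from 0.557 (Cidec and Plin4) to 0.901 (Cidec and Plin2), again with no test. The Spearman rank correlation there was 0.491 to 0.855, and the relation of Plin4 and Plin5 went from an r of 0.763 to 0.388 without the 2 libraries farthest from the median of Plin4, so that it rests on them. No correlation of Cidea with another gene of the set passed a test in these livers. With 10 libraries this does not show that Cidea lacks the pattern, which was itself not tested. Over the 10 old livers Cidea had r = 0.68 and a Spearman rank correlation of 0.733 with Cideb (adjusted permutation p = 0.169 and 0.108 over 7 pairs, r = 0.594 without the 2 farthest libraries). With Cidec, Plin2, Plin3, Plin4 and Plin5 its r ran from -0.487 to 0.234 and its rank correlation from -0.394 to 0.406, with adjusted permutation p of at least 0.359 and 0.463. Plin1, the seventh, had at most 2 reads per old library. K5L5218 and K5L5248 set the low end of the young KO group for Cidec, Plin4 and Plin5 in the ageing values above.

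**Figure D3:**
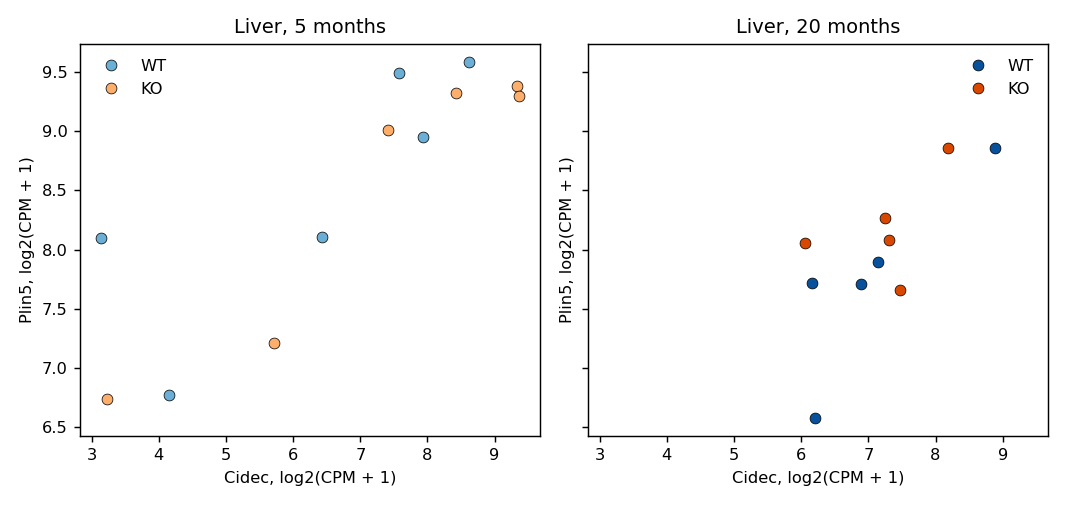
Plin5 against Cidec in liver, both as log2(CPM + 1), with 1 point per library, at 5 months on the left and 20 months on the right, coloured by genotype. The points of 5 months run upwards (r = 0.864, n = 12) from libraries low in both genes to libraries high in both, and KO and WT points mix.

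Among the comparisons of age or genotype that were tested for these genes, which leave out ageing in liver, ageing WT muscle was the only one with calls in limma with all libraries. In ageing WT muscle 3 of 7 genes tested fell, Plin3, Plin4 and Cidea, where 18.6% of all genes passed in either direction. Over the 7 genes the median log2 difference was -0.87, beside a median of 0.03 over all genes tested, and 2 of 7 were positive. Plin3 had 97.2, 97.1, 62.3, 57.1, 38.9 and 59.7 CPM at 5 months and 25.3, 30.3, 36.5, 26.1 and 24.8 CPM at 20 months. Every young value was above every old one, which held in either direction for 5.27% of genes, and Plin3 fell (log2 difference -1.18, SE 0.21, adjusted p = 0.0024, limma). Without W5S5299, the muscle library with epididymal transcripts, the same 3 genes were called. The Plin3 call was made in all 20 fits that left out a library, with an adjusted p of at most 0.0093.

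Plin4, the most abundant of these genes in muscle per kb of exon, had 1129, 1427, 1451, 1247, 500.5 and 954 CPM in young WT muscle and 602, 549, 706, 394 and 667 CPM in old WT muscle. The young library with 500.5 CPM (W5S5277) lies among the old values. Plin4 fell by 0.88 (SE 0.26, adjusted p = 0.0240, limma), a call made in 15 of 20 fits that left out a library, and lost without W18S42, W18S66, W5S5007, W5S5041 or W5S5042 (adjusted p from 0.0505 to 0.0758). It was not made without the libraries with Xist (-0.71, adjusted p = 0.139), with sex as a covariate (adjusted p = 0.0566), or without a filter on low values (0.0509). Cidea had 4.35, 6.11, 2.38, 1.65, 2.002 and 1.60 CPM in young and 0.609, 1.76, 0.580, 1.1 and 1.37 CPM in old WT muscle, from 266 and 97 reads. It fell by 0.87 (SE 0.28, adjusted p = 0.0360, limma), also in 15 of 20 such fits, and lost without W18S41, W18S45, W18S66, W5S5004 or W5S5007 (adjusted p from 0.0637 to 0.0854), without a filter on low values (0.0738) and with a pseudocount of 5 (-0.37, adjusted p = 0.0608). Of the old values, 1 lay inside the young range. The number of genes called was 1, Plin3, without W18S66 or without W5S5007, where Cidea (adjusted p = 0.0696 and 0.0854) and Plin4 (0.0758 and 0.0560) were lost.

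The remaining genes of WT muscle did not pass. Cidec had 46.5, 41.5, 5.255, 28.9, 9.805 and 32.8 CPM at 5 months and 9.54, 9.21, 14.4, 3.50 and 4.87 CPM at 20 months, a difference of -1.42 (adjusted p = 0.0820, limma) that was called by edgeR (-1.76, adjusted p = 0.0468) and DESeq2 (0.0213). Those tools made 4 calls each, a number from which nothing is read, since no share of all genes is given for them. Cidec was also called without W5S5041 (-1.80, adjusted p = 0.0320, limma) or W5S5277 (-1.64, 0.0416). With sex as a covariate it was called as well (-1.83, adjusted p = 0.0341, limma). Plin5, the perilipin of oxidative fibres, went from a mean of 72.3 ± 12.5 to 94.5 ± 33.4 CPM, a difference of 0.31 that was called without W18S41 (0.54, adjusted p = 0.0296, limma). Plin2 averaged 42.2 ± 11.0 and 46.8 ± 23 CPM and Plin1 3.34 ± 1.85 and 2.59 ± 0.41 CPM. The highest old Plin2 value, 87.3 CPM, was again that of W18S42. Of the 11 white adipocyte markers in WT muscle, Lep was higher and Cfd and Slc2a4 lower with age, and their sum was 1199 to 1499 CPM at 5 and 940 to 1201 CPM at 20 months. Of 6 macrophage markers tested 3 were lower (Cd68, Gpnmb and Mrc1), and the sum of the list was 80.9 to 239 CPM at 5 and 40.5 to 123 CPM at 20 months. The part of either in the perilipin and Cidea values was not tested.

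**Figure D4:**
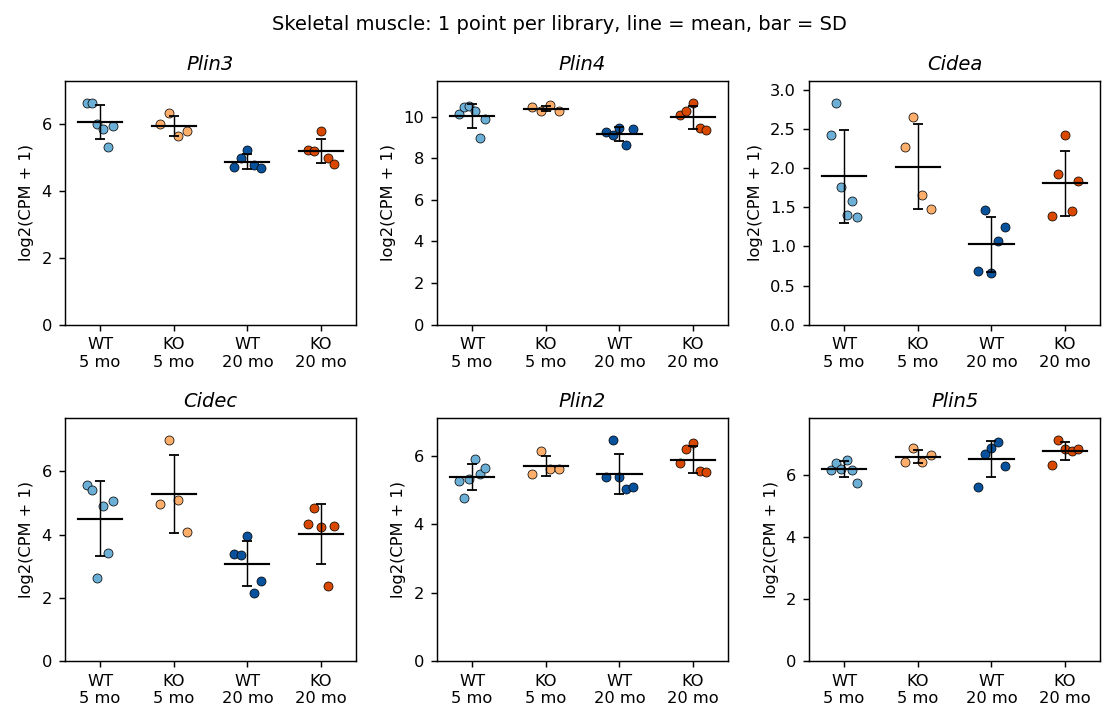
Log2(CPM + 1) of 6 genes in skeletal muscle, with 1 point per library, a line for the group mean and a bar for the SD, for WT and KO at 5 and 20 months. WT Plin3 runs from 38.9 to 97.2 CPM at 5 months and from 24.8 to 36.5 CPM at 20 months, and Plin2 and Plin5 show no such step.

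In KO muscle the same genes had the same sign and none passed. Plin3 had 62.5, 79.4, 48.8 and 53.7 CPM at 5 months and 36.1, 35.4, 53.8, 30.6 and 26.6 CPM at 20 months, a difference of -0.74 (adjusted p = 0.0650, limma) with 1 old library among the young values. Plin4 differed by -0.42, Cidec by -1.27 and Cidea by -0.21. In this comparison 0 of 7 genes passed in limma, where 5.57% of all genes did, with 1 at an unadjusted p under 0.05, 0 in edgeR and 1 in DESeq2 (Plin3, adjusted p = 0.0405). Plin3 was also called in limma without K18S62 (-0.89, adjusted p = 0.0402) or without the WT library W5S5277 (-0.74, 0.0290). Whether ageing differed between genotypes was tested directly: 0 of 7 genes passed, where 0% of genes did, with 0 at an unadjusted p under 0.05 and 0 in edgeR and DESeq2. The WT and KO ageing results are therefore not shown to differ.

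Between KO and WT muscle no gene passed at either age. At 5 months 0 of 7 passed, where 0% of all genes did, with 0 at an unadjusted p under 0.05 and 0 in edgeR and DESeq2. At 20 months all 7 differences were positive, with a median of 0.43 beside -0.03 over all genes, and 0 of 7 passed, where 0.0302% of genes did. Of these, 2 had an unadjusted p under 0.05, and edgeR and DESeq2 called 0. Plin4 had 1091, 1234, 1597, 700 and 644 CPM in old KO muscle against 394 to 706 CPM in old WT muscle, a difference of 0.80 (SE 0.27, adjusted p = 0.295, limma). Cidea had 1.615, 2.79, 4.36, 1.75 and 2.58 CPM against 0.580 to 1.76, a difference of 0.78 (SE 0.29, adjusted p = 0.306). For both genes 2 of the 5 KO values lay inside the WT range. In the same comparison 9 of 11 white adipocyte markers were positive (median 0.24), as were 6 of 6 macrophage (0.54) and 5 of 5 erythroid markers (0.86). Of the skeletal muscle markers 4 of 10 were positive (median -0.16). None of these markers passed, and their part in the droplet gene values was not tested.

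In omental adipose tissue no gene of the set passed a test in any of the 5 comparisons. Per kb of exon, Cidec and Plin4 were the most abundant of the set there in every group. Cidec averaged 4017 ± 1768 CPM (n = 6) in young WT, 2561 ± 1306 (n = 6) in young KO, 2597 ± 547 (n = 5) in old WT and 2670 ± 711 (n = 5) in old KO. Plin4 averaged 2122 ± 821, 2395 ± 961, 3104 ± 564 and 2462 ± 753 CPM in the same order. Plin2 averaged 471 ± 185, 641 ± 403, 654 ± 126 and 896 ± 177 CPM, and Plin3 43.6 to 49.97 CPM. For these 4 genes all groups compared overlapped.

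Plin1, the perilipin that guards the adipocyte droplet, had the smallest p of the set between young KO and WT adipose tissue. At 5 months it had 44.7, 108, 342, 160, 461 and 293 CPM in KO and 855, 913, 253, 191, 876 and 450 CPM in WT. The groups overlapped and the difference was -1.44 (SE 0.48, adjusted p = 0.284, limma). At 20 months it had 517, 565, 231, 628 and 309 CPM in KO and 667, 703, 699, 1079 and 753 CPM in WT. Every WT value was above every KO value, which held in either direction for 1.29% of genes, and the difference was -0.87 (SE 0.53, adjusted p = 1.0, limma). At 5 months 0 of 7 genes passed, where 0.105% of all genes did, with 1 at an unadjusted p under 0.05 and 0 in edgeR and DESeq2. At 20 months 0 of 7 passed, where 0% of genes did, with 1 at an unadjusted p under 0.05 (Plin5, -0.93) and 0 in edgeR and DESeq2. Of the 11 white adipocyte markers, 1 was higher in KO at each age and none passed. Their median difference was -0.75 at 5 and -0.31 at 20 months, beside -0.04 and 0.01 over all genes. The 7 macrophage markers tested were all higher in KO at both ages (medians 0.26 and 0.82), and none passed. The part of either in the Plin1 values was not tested. Without the libraries with Xist, Plin1 was called lower in KO at 5 months (-2.21, adjusted p = 0.0327, limma). The young KO libraries left in that fit were K5F4284, K5F4285, K5F5218 and K5F5248. All of them but K5F4285 held epididymal transcripts above 100 CPM in sum, as did only W5F5299 of the young WT libraries left.

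With age in adipose tissue, 0 of 7 genes passed in WT, where 10.8% of all genes did, and 0 of 7 in KO, where 14.2% did. In each of them 1 gene had an unadjusted p under 0.05, and edgeR and DESeq2 called 0. In WT that gene was Plin5, from 3.67, 3.80, 13.4, 12.1, 16.4 and 7.44 CPM at 5 months to 26.1, 7.69, 10.9, 27.8 and 16.7 CPM at 20 months (0.88, SE 0.36, adjusted p = 0.110, limma). In KO Plin5 differed by -0.54, and the test of the change in KO effect gave -1.42 (SE 0.51, adjusted p = 0.998). In KO the gene was Plin1, with 1.203 (SE 0.51, adjusted p = 0.105, limma), called without K5F5218 (1.47, adjusted p = 0.0414). The test of the change in KO effect passed for 0 of 7 genes, where 0% of genes did, with 1 at an unadjusted p under 0.05 and 0 in edgeR and DESeq2.

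Cidea in adipose tissue was low, with 1 library apart. Young KO adipose tissue had 0.328, 0.364, 1.85, 34.2, 1.08 and 0.204 CPM, and the other 3 adipose groups lay between 0.563 and 7.04 CPM. The library with 34.2 CPM, K5F5118, also had the highest Ucp1 (68.8 CPM) and the highest sum of the brown adipocyte markers (166 CPM, against a group median of 25.4). Without it, Cidea was higher in old than in young KO adipose tissue by 1.25 (adjusted p = 0.0264, limma). Without all libraries with Xist, of which K5F5118 is one, the difference was 1.45 (adjusted p = 0.00469, limma). All young KO libraries left in that fit but K5F4285 held epididymal transcripts. The epididymal sum reached 6313 CPM in young KO adipose tissue and stayed under 0.50 CPM at 20 months, and leaving out the 4 libraries concerned gave 0 calls in all 5 comparisons. In ageing WT adipose tissue 5 of 6 B and plasma cell markers and 4 of 5 T cell markers tested were higher, and of the 11 white adipocyte markers Trarg1 rose (1.67) and Cfd and Retn fell (-2.83 and -2.43). In ageing KO adipose tissue Lep rose and Cfd and Retn fell, 3 of 6 B and plasma cell markers rose, and of 7 macrophage markers tested Gpnmb (2.10) and Adgre1 (1.19) rose. Hepatocyte markers, some of which adipocytes also express, summed to 486 to 4928 CPM in the young groups and 112 to 1481 CPM in the old ones. The part of any of these in the droplet gene values was not tested.

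**Figure D5:**
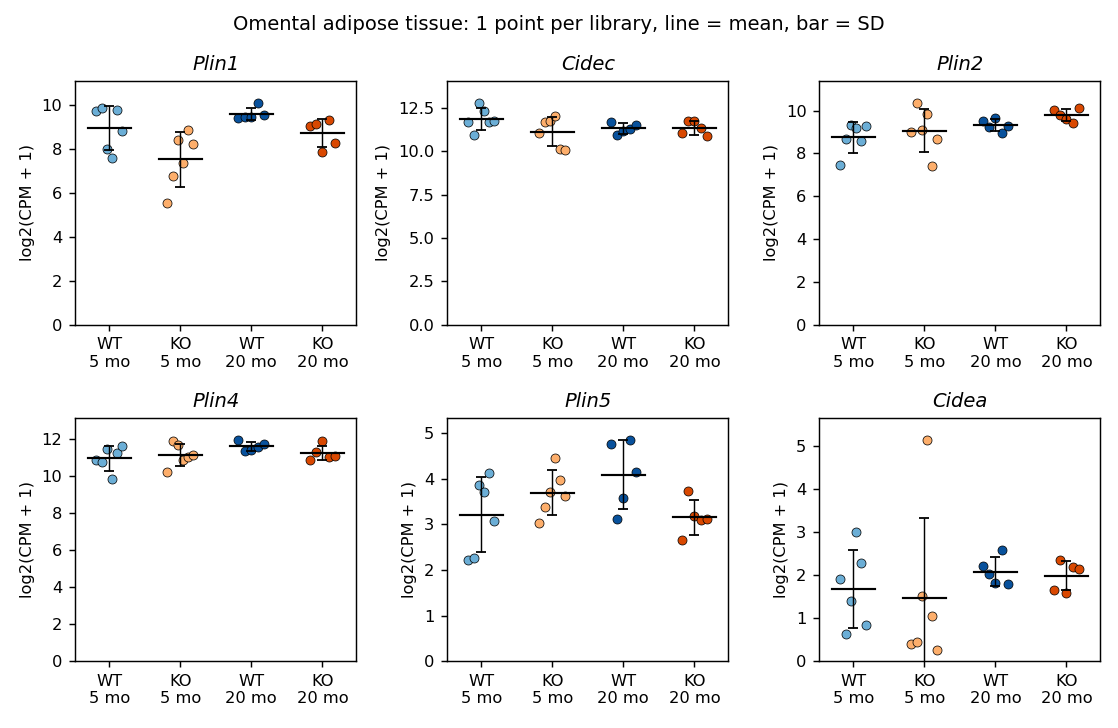
Log2(CPM + 1) of 6 genes in omental adipose tissue, with 1 point per library, a line for the group mean and a bar for the SD, for WT and KO at 5 and 20 months. Plin1 at 20 months runs from 231 to 628 CPM in KO and from 667 to 1079 CPM in WT, and a single young KO library has Cidea at 34.2 CPM.

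Other genes of lipid storage were followed in 7 lists with 69 genes: lipases and their regulators, triglyceride synthesis, droplet assembly, lipoprotein assembly, nuclear receptors and other transcription factors, fatty acid uptake, and the DNA fragmentation factors that share the CIDE-N domain. Adipose tissue had 62 of them tested, liver 66 and muscle 57. None passed between KO and WT at either age or in the test of the change in KO effect, in any tissue, in limma or edgeR, with 0 to 12 genes per comparison at an unadjusted p under 0.05 in limma. The 12 were in young adipose tissue, where 1692 of the 14286 genes tested had such a p. DESeq2 called 2 in young adipose tissue and 0 in the other such comparisons, with no share of all genes given for DESeq2. With age, 3 rose and 2 fell in WT liver and 4 rose and 1 fell in KO liver, 2 rose and 8 fell in WT adipose tissue and 6 rose and 4 fell in KO adipose tissue, and 6 rose and 4 fell in WT muscle and 1 rose and 2 fell in KO muscle. Of all genes tested, 7.19% passed in WT liver, 2.99% in KO liver, 10.8% and 14.2% in WT and KO adipose tissue, and 18.6% and 5.57% in WT and KO muscle. Nothing particular to the lists is read from their counts, and the genes below are given for their own values. The ageing values of the list genes were not compared without the libraries with Xist.

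In liver, where Cidea was higher at 20 months, Fitm1 rose in both genotypes. It encodes a fat storage-inducing transmembrane protein that partitions triglyceride into droplets. It went from 22.9 ± 25.4 CPM (n = 6) to 91.5 ± 14.8 CPM (n = 5) in WT (2.40, SE 0.46, adjusted p = 0.00359, limma) and from 18.1 ± 18.9 to 77.9 ± 14.2 CPM in KO (2.43, adjusted p = 0.00671). Mogat1, a monoacylglycerol acyltransferase, rose from 1.03 to 6.54 CPM in WT (1.95) and from 1.34 to 7.04 CPM in KO (1.63). Mlxipl, the carbohydrate-responsive factor ChREBP, rose from 126 to 228 CPM in WT (0.82) and from 124 to 231 CPM in KO (0.88). Cd36, a fatty acid translocase, rose in KO from 110 to 308 CPM (1.77, adjusted p = 0.0366). Slc27a5, the bile acid and fatty acid CoA ligase of hepatocytes, and Fabp4 fell in WT, by 0.67 and 0.88. Tmem159, which encodes the seipin partner LDAF1, fell in KO by 0.80.

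In WT muscle, where Plin3, Plin4 and Cidea fell, the genes that changed went both ways. Pnpla2, the triglyceride lipase ATGL, fell from 1055 ± 326 to 576 ± 73.3 CPM (-0.81, adjusted p = 0.0162, limma), while its co-activator Abhd5 rose by 0.52. Gpam, the first acyltransferase of glycerolipid synthesis, rose from 272 to 553 CPM (1.25), and the phosphatidate phosphatase Lpin3 fell by 1.04. The transcription factors Cebpb and Ppard fell, by 1.55 and 0.83. Acsl1 and Fabp3, which activate and carry fatty acids, rose by 0.73 and 0.58, as did Rab18 (0.33) and Pcyt1a (0.38). In KO muscle Lpin3 and Bscl2 (seipin) fell, by 1.31 and 0.54, and Vldlr rose by 0.72.

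In ageing adipose tissue Dgat1, which makes the final step of triglyceride synthesis, fell in both genotypes, by 1.54 in WT and 1.05 in KO. Among the 8 that fell in WT, 4 of them of triglyceride synthesis, the log2 differences were -1.55 for Gpam, -1.07 for Mogat1, -1.004 for Bscl2, -1.12 for Ces1d, -0.53 for Surf4 and -1.42 for Slc27a1. Lipa, the lysosomal acid lipase, rose from 96.2 ± 32.6 to 229 ± 99.7 CPM in WT (1.21, adjusted p = 0.0181, limma) and from 118 ± 29.7 to 343 ± 155 CPM in KO (1.43, adjusted p = 0.00638). Vldlr rose in both, by 0.96 and 0.90. In KO Mogat2, Cavin1, Pcyt1a and Cd36 also rose, by 1.80, 1.14, 0.70 and 1.12, and Mlxipl, Ppard and Slc27a4 fell, by 0.74, 0.59 and 0.58.

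Genes most like each member were found by Pearson r of group means of log2(CPM + 1) over the 12 groups, over 13086 genes whose mean reached 5 CPM in some group. These r values mostly reflect the 3 tissues that the points share. For Plin1 they were Lipe (0.998), the hormone-sensitive lipase, Phgdh and Matn2. For Cideb they were Sec14l2, Entpd8 and A1cf, for Cidec Ccbe1, Rab34 and Tax1bp3, for Plin2 Hyal1, Reps2 and Plxnb2, for Plin4 Gabbr1, Nfatc4 and Acap3, and for Plin5 Mia3, Slc38a3 and As3mt, all with r of 0.986 or above. Plin3 and Cidea had no such close neighbour: the nearest were Lrrc8a (0.904), Dhx8 and Socs3 for Plin3, and Srsf2 (0.849), Osbpl3 and Noct for Cidea.

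Over the 22 liver libraries, where age is the main step in Cidea, the 5 most like it among 10223 genes were Pnldc1 (r = 0.919), Zfp979 (0.909), Gm15401 (0.904), Dmrta1 (0.885) and Gm2065 (0.884). Pnldc1, an exonuclease gene, averaged 1.26 CPM in young and 16.0 CPM in old WT livers, and 1.84 and 9.22 CPM in KO livers. Gm15401 averaged 2.63 and 20.3 CPM in WT and 2.18 and 11.6 CPM in KO. Gm2065 averaged 3.46 CPM in old WT and 5.35 CPM in old KO livers. These genes were picked for their likeness over the same libraries, so that a shared pattern is no finding.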

How the data were processed

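RNA-seq was made from poly(A) RNA of omental adipose tissue, liver and skeletal muscle with a directional library kit, per the labels' protocols. The authors deposited 1 table of values named CPM in the file headers, with mouse NCBI gene IDs in 36333 rows. Its columns sum to 0.529 to 1.64 M (M, 1e6), so the deposited values were treated as a read signal scaled per library, not as true CPM. Per the submitters' processing notes the builds were GRCm38.p6 and mm10, and the aligner is not given in the sources used here. Every value was a whole multiple (100%, tolerance 0.01) of what 1 read is worth in its library, and the reads recovered (15.4 to 28.5 M per library) entered the count tests. Their number limits the precision of low values, and PCR copies are not told apart.

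For each tissue limma 3.58.1 (R 4.3.3) was fitted across all genes on log2(CPM + 1), with 4 groups, an intensity trend and Benjamini-Hochberg adjustment over the genes tested (adipose tissue 14286, liver 12924, muscle 13237). Genes needed over 1 CPM in as many libraries as the smallest group holds. Tissues were compared in WT libraries of 5 months over 14087 genes. A difference was called at an adjusted p under 0.05. Shares of all genes that passed are those of limma, and none is given for edgeR or DESeq2. The design had foreseen true CPM, and its test was kept. Groups come from the labels, all columns were mapped, and no 2 libraries were alike within sampling noise. Alternatives were edgeR 4.0.16 and DESeq2 1.42.0 on recovered reads, other scalings, pseudocounts of 0.1 and 5, no filter, sex as a covariate, leaving out libraries, and replicate numbers as a block between tissues. Lengths are unions of GENCODE exons. Correlations used 100000 permutations (scipy 1.17.1). The limma fit was tested on simulated liver counts, with known changes between WT ages in genes with many reads.

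The 8 genes and all lists were chosen with earlier results of these data known. Genes named are the 8, up to 3 called genes per pathway list and comparison by size of change, the 3 most like each member, the 5 most like Cidea in liver, and markers beside a result. RefSeq proteins were not used here.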

Additional observations from a re-analysis of the deposited data

Results flagged for a closer look

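Of 85 combinations of gene and group with 4 to 6 libraries, 7 had a highest or lowest library far from the others by Dixon's 95% criterion. The criterion was applied on the log2(CPM + 1) scale, and chance alone meets it in about 1 of 20. A further 11 combinations, all under 1 CPM, were left out. In adipose tissue, Cidea was 34.24 CPM in K5F5118 (KO, 5 months) and Plin1 was 1079 CPM in W18F24 (WT, 20 months). In liver, Cideb was 405.5 CPM in K18L06 (KO, 20 months), which also had the highest Cidea of its group. In muscle, Cideb was 4.909 CPM and Plin2 87.27 CPM in W18S42 (WT, 20 months), the library with hepatocyte transcripts. Also in muscle, Cidec was 4.201 CPM in K18S63 (KO, 20 months) and Plin1 0.1642 CPM in W5S5041 (WT, 5 months).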

How the results depend on the processing

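Over 136 results of a gene in a comparison, 3790 alternative values were computed: 3736 kept their direction and side of the threshold or moved by less than the spread, 18 became called, 24 lost the call, 10 untested values moved and 2 reversed. In all, 145 values lay on the other side of 0, of which 2 were called in either fit. Both of these were of Plin3 with recovered reads divided by the library total: 0.79 for adipose tissue minus liver and 0.29 for adipose tissue minus muscle. The number of genes called was 1 without the libraries with Xist for young KO against WT adipose tissue and for ageing KO adipose tissue, 1 without a filter for ageing WT muscle, and 1 with DESeq2 for ageing KO muscle. Leaving out 1 library gave 0 to 1 calls in ageing KO adipose tissue, 1 to 4 in ageing WT muscle and 0 to 1 in ageing KO muscle. The labels do not say that replicate numbers mark the same mouse, and same-numbered young WT libraries of different tissues correlated in their deviations from -0.139 to 0.467. With the replicate block the tissue comparisons called 7, 5 and 7 genes in place of 7, 6 and 7, and Plin3 lost its call between adipose tissue and muscle (-0.45, adjusted p = 0.057, limma). Cidea in liver ageing ranged from 3.77 to 9.37 in WT and from 2.55 to 9.57 in KO over pseudocounts and tools. Depth limits Cidea in young liver, at 6 and 8 reads per group.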
